A study of Mus musculus with 56 samples.

Results

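The 10 genes of branched-chain amino acid catabolism were followed in mouse heart around the clock in mice fed only by day (DRF, daytime-restricted feeding) or only by night (NRF). They were taken by symbol from the table of all genes and make up 10 of the 22864 genes listed. The 10 are Bcat2, Bckdha, Bckdhb, Dbt, Bckdk, Ppm1k, Ivd, Mccc1, Hibadh and Hibch, and all 10 passed the filter on low values that left 13878 genes for testing. In these hearts Ppm1k, the phosphatase that activates the pathway, showed the largest relative difference between regimens of the 10, averaging 41.3 ± 3.09 TPM under DRF against 23.95 ± 3.63 TPM under NRF at ZT24 (SD, n = 4 each), where TPM are reads divided by exon length and brought to a common total per library. At no ZT was the ratio of group means of another member as far from 1 as this. In TPM the DRF minus NRF differences of the more abundant Ivd at ZT16 (-26.7) and ZT12 (-24.4) and of Bckdha at ZT24 (17.7) were wider than that of Ppm1k at ZT24 (17.4). In the main fits a different rhythm between regimens was called in 3 of the 10, against 27.6% of all genes tested. Over all the tests between regimens 6 of the 10 passed none, a count for which no share of all genes is given here.

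All mice were C57BL/6J females, housed in groups and free of specific pathogens, and were 9 weeks old at collection. They entered at 7 weeks of age, spent 7 days with free access to chow with lights on for 12 h and off for 12 h each day, and then received food for 7 further days in the light phase only (DRF) or in the dark phase only (NRF, the reference regimen). Hearts were collected at ZT0, ZT4, ZT8, ZT12, ZT16, ZT20 and ZT24, where zeitgeber time (ZT) counts hours after lights on, and polyA RNA was sequenced. There were 14 groups, each a regimen at a ZT, with 4 replicates apiece and 56 libraries in all. The mice carried no genetic change named in the labels, and the comparison asked how the time course of a transcript in heart responds when feeding is moved to the resting phase.

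Leucine, isoleucine and valine, the branched-chain amino acids, are broken down in mitochondria, and much of this takes place outside the liver, in muscle and heart among other tissues. Bcat2 removes the amino group, and the branched-chain keto acid dehydrogenase complex then carries out the committed and irreversible step. That complex is switched off by phosphorylation through the kinase Bckdk and switched on by the phosphatase Ppm1k, and separate enzymes then process the products of leucine and of valine.

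The promoters of this kinase and phosphatase are shown because the results below turn on the pair, one transcript that moved between regimens and one that passed no test in the main fits. Each is the stretch of 250 bases before the RefSeq start site in build GRCm38.p6, 5′ to 3′ on the strand of the gene, at chr6:57535488-57535737 (minus strand) for Ppm1k and chr7:127903823-127904072 (plus strand) for Bckdk. Capitals mark a match on either strand to CACGTG (E-box), GTAAACA (FOXO site), AGGTCA (nuclear receptor site), CCACCC (KLF site) or TGACG (core of the CRE).
Ppm1k: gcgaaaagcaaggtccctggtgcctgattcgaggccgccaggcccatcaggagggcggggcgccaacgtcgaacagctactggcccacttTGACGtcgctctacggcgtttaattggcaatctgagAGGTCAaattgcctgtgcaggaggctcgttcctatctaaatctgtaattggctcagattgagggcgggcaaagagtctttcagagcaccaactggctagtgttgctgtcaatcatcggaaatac
Bckdk: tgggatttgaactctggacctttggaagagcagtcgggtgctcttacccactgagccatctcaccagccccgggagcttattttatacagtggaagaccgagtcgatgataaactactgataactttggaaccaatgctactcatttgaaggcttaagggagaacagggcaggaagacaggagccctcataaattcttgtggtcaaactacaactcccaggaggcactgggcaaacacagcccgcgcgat
The Ppm1k promoter held TGACG, starting 160 bases before the start site, and AGGTCA, starting 124 bases before it, and the 2 matches did not overlap. The Bckdk promoter held none of the 5 motifs.

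In windows from 250 bases before to 50 bases after the start, promoters were found for 9 of the 10 members, 11 promoters in all, and none for Dbt. CACGTG was in 0 of the 9 members and in 7.15% of 32851 promoters of the same length. AGGTCA was in 3 members (Bckdhb, Hibadh and Ppm1k) and in 16.3% of all promoters. CCACCC was in 4 members (Bcat2, Bckdhb, Ivd and Mccc1) against 31.5%, TGACG in Ppm1k alone against 20.8%, and GTAAACA in Hibadh alone against 3.65%. A match describes these letters in this window and nothing more.

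The libraries held 29.4 to 53.2 M (mega) recovered reads, with a median of 37.5 M. The 28 DRF libraries averaged 38.3 ± 5.76 M (SD) and the 28 NRF libraries 38.6 ± 4.66 M (SD). Mitochondrially encoded transcripts took 21.7 ± 1.46% (SD) of DRF reads and 20.3 ± 1.57% (SD) of NRF reads, over 28 libraries each. All 10 cardiomyocyte markers were present, with a summed level of 29310 to 39103 TPM under NRF and 24987 to 33769 under DRF. The 6 atrial markers, all present, ran from 133 to 4372 TPM (median 610) under NRF and from 97.8 to 5457 TPM (median 1796) under DRF. The 8 fat markers ran from 51.0 to 245 and from 45.5 to 314 TPM, and the 5 blood markers from 1672 to 42721 and from 1863 to 66921 TPM, in the same order. Summed medians were lower under DRF for the 5 endothelial markers (582 and 518 TPM under NRF and DRF), the 5 fibroblast markers (633 and 588), the 4 smooth muscle markers (282 and 236), and the 5 immune markers (58.8 and 51.4). Cd3e was under 1 TPM in every library, and 3 of 5 skeletal muscle markers were listed, at medians of 1229 and 1079 TPM. In whole hearts, fewer cells of a type and less RNA per cell cannot be told apart.

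Over the 1000 genes whose group means varied most, 12 of the 56 libraries correlated better with another group than with the rest of their own. Of these 4 stood far apart, with a correlation under 0.1 with their own group and over 0.3 with another. DRF ZT4 replicate 1 had r = -0.06 with its own group and 0.37 with NRF ZT8. NRF ZT8 replicate 1 had r = -0.09 with its own group and 0.48 with DRF ZT4, so each of these 2 was closest to the other's group. DRF ZT4 replicate 2 (r = -0.20) was closest to DRF ZT12 (0.31), and DRF ZT20 replicate 2 (r = 0.03) to DRF ZT16 (0.50). Results are given with all 56 libraries. For the members' tests of rhythm, mean level and single ZTs they are also given without these 4 where they changed.

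The members differed in level more than any of them differed over the day. On the TPM scale, which is per length, Ivd was the most abundant at 157 ± 14.1 TPM (SD over 56 libraries). Bckdha followed at 86.9 ± 8.30, Bckdhb at 65.02 ± 4.45, Bcat2 at 54.5 ± 4.15, Hibadh at 54.0 ± 2.56, Bckdk at 51.2 ± 3.51 and Dbt at 48.4 ± 5.57. Ppm1k, Hibch and Mccc1 were the lowest, at 30.02 ± 5.34, 27.9 ± 1.70 and 18.99 ± 1.44 TPM. The spreads of Bcat2, Hibadh, Bckdk and Dbt overlapped one another, as did those of Ppm1k and Hibch. Each member was covered by 1488 to 21609 reads in every library. The median depth of Ppm1k, 3009 reads, would give a counting error of 1.82%, against a coefficient of variation of 17.8% over the libraries. That of Hibadh, the steadiest member, was 4.74%.

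**Figure D1:**
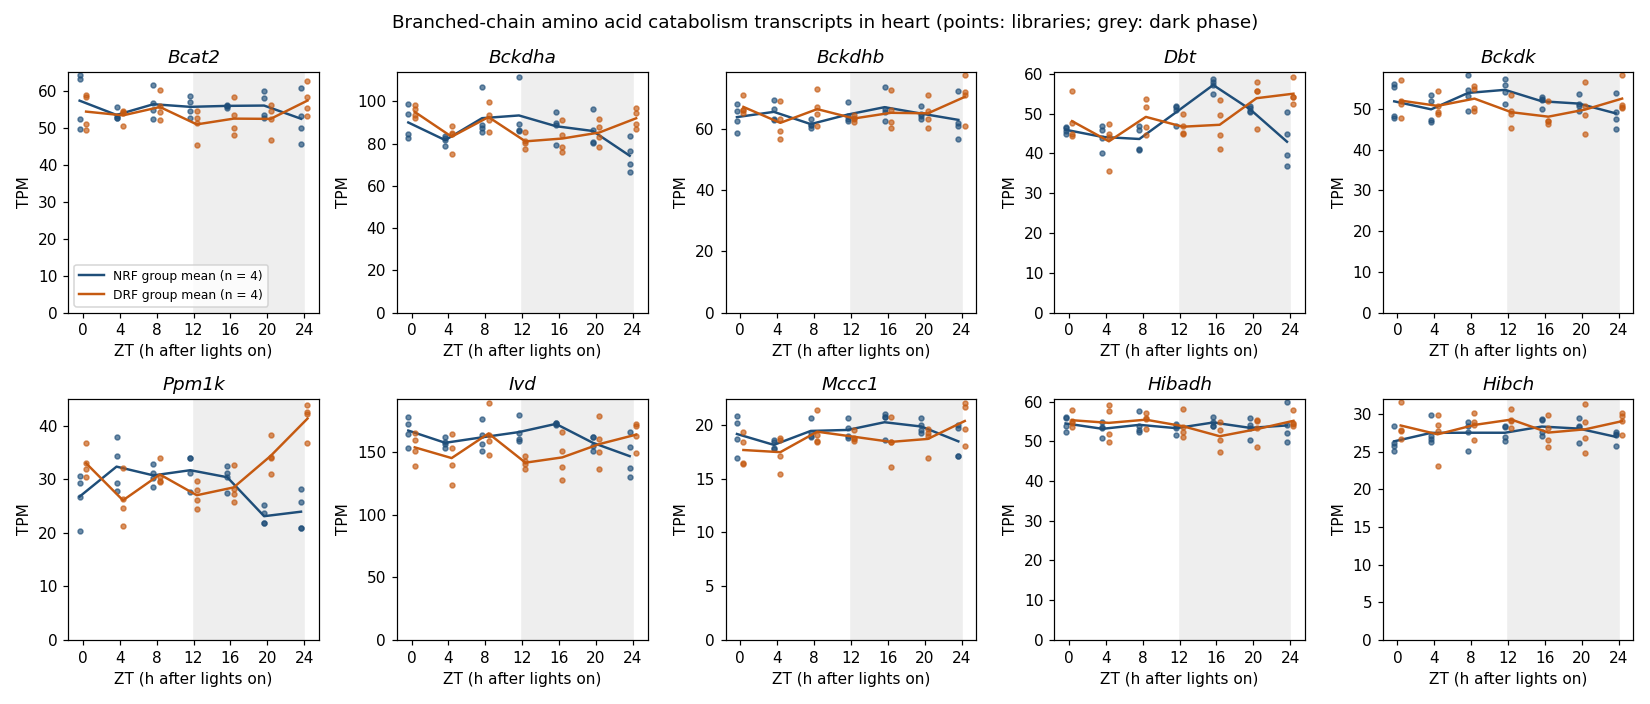
TPM of each member against ZT in h, with 1 point per library (4 per regimen and ZT), lines through the group means and the dark phase in grey. The lines of Ppm1k part at ZT20 and ZT24, where the 4 DRF points lie above the 4 NRF points, and those of Dbt cross between ZT16 and ZT24, while those of Hibadh stay within 51.3 to 55.5 TPM.

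Rhythms were tested with limma's F test of a 24-h cosine on log2(TPM + 1), with p-values adjusted over all 13878 genes. Under NRF 2 of 10 members were rhythmic, Dbt and Ppm1k, against 37.3% of all genes tested. An unadjusted p under 0.05 was found in 4 of 10, and in 6521 of the 13878 genes. Under DRF 1 of 10 was rhythmic, Ppm1k, against 32.4% of all genes. An unadjusted p under 0.05 was found in 2 of 10, and in 6122 of the 13878 genes. Ppm1k alone was rhythmic under both regimens, against 17.7% of all genes. The test of the regimens against each other called a different rhythm in 3 of 10, Ppm1k, Bckdha and Dbt, against 27.6% of all genes. In each of these tests the count of members was below the share of all genes or close to it.

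Bcat2, the mitochondrial aminotransferase that takes the first step, did not pass any test. Its group means lay between 52.4 TPM (ZT24) and 57.3 TPM (ZT0) under NRF, and between 50.9 TPM (ZT12) and 57.3 TPM (ZT24) under DRF. The adjusted p of limma's test of a different rhythm was 0.301, and the fitted amplitudes were 0.03 (SE 0.03) and 0.05 (SE 0.03) on the log2 scale under NRF and DRF. An antisense gene, 0610005C13Rik, shared 15.9% of the exon bases of Bcat2 and averaged 0.315 TPM.

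Bckdha encodes the alpha subunit of the dehydrogenase, the subunit that the kinase phosphorylates. Its gene lies on chromosome 7 (25629946 to 25658981, minus strand, GRCm38). At ZT24 its 4 DRF libraries held 94.7, 86.9, 89.4 and 96.9 TPM, and the 4 NRF libraries 76.5, 83.5, 66.5 and 70.4 TPM. Every DRF library was above every NRF library, and the difference was 0.31 on the log2 scale (SE 0.08, limma adjusted p = 0.00806). The adjusted p was 0.0594 without NRF ZT24 replicate 3, the lowest library, 0.0585 without replicate 1 of every group and 0.0550 without replicate 4. At ZT12 the order was turned, with 77.6, 85.3, 81.2 and 80.1 TPM under DRF and 89.0, 86.0, 111.7 and 86.5 TPM under NRF. The groups again did not overlap, NRF replicate 3 stood well above the other 3, and the difference of -0.19 (SE 0.08) did not pass (limma adjusted p = 0.110).

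Over the whole day Bckdha had a different rhythm between regimens (limma adjusted p = 0.0146), with fitted peaks at ZT12.1 (SE 1.64 h) under NRF and ZT2.03 (SE 1.499 h) under DRF. Neither regimen alone passed the rhythm test, with limma adjusted p of 0.0956 and 0.0909. Leaving out ZT12 or ZT24 gave an adjusted p of 0.146 or 0.183 for the difference, leaving out replicate 2 or 4 of every group gave 0.0574 or 0.123, and median-of-ratios rescaling gave 0.0530. The opposite-strand gene B3gnt8, at 1.93 TPM, shares 61.7% of the exon bases of Bckdha, and the labels name no step that keeps strand, so reads in the shared bases cannot be assigned and the level of Bckdha is uncertain.

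Bckdhb, the beta subunit of the same enzyme, did not pass any test. Its group means ran from 61.6 to 67.1 TPM under NRF and from 62.0 to 70.4 TPM under DRF. At ZT24, where it was furthest from NRF, the difference was 0.16 (SE 0.07, limma adjusted p = 0.129).

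Dbt encodes the transacylase core of the complex, to which the dehydrogenase and its kinase bind. Its gene spans 116513070 to 116549981 on the plus strand of chromosome 3 (GRCm38). It was rhythmic under NRF (limma adjusted p = 3.65e-05), with a log2 amplitude of 0.19 (SE 0.03) and a peak at ZT16.1 (SE 0.54 h). Under DRF the amplitude was 0.09 (SE 0.04) and the adjusted p 0.205. At ZT16 the 4 NRF libraries held 58.6, 58.0, 57.2 and 54.8 TPM, and the 4 DRF libraries 53.5, 49.6, 44.7 and 41.0 TPM. All DRF values were lower, by 0.28 on the log2 scale (SE 0.08, limma adjusted p = 0.0317). That call was lost without any 1 of 5 ZT16 libraries (DRF replicate 3 or 4, NRF replicate 1, 2 or 3), with adjusted p of 0.0667 to 0.220. At ZT24 the order was the opposite, with 50.4, 45.0, 39.5 and 36.9 TPM under NRF and 59.3, 54.2, 54.1 and 52.4 TPM under DRF. No DRF library fell as low as an NRF library, and the difference was 0.36 (SE 0.08, limma adjusted p = 0.00412).

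The rhythm of Dbt differed between regimens (limma adjusted p = 0.0180). After rescaling of the libraries by the median of their ratios this adjusted p was 0.145 and that at ZT16 was 0.328, while the ZT24 difference kept an adjusted p of 0.00848. Without replicate 3 of every group the ZT24 difference had an adjusted p of 0.112. The adjusted p of a different rhythm was 0.0787 without ZT12, 0.317 without ZT16, 0.152 without ZT24 and 0.116 without replicate 3 or 4. On the deposited values it was 0.174, and that of the ZT16 difference was 0.279. The NRF rhythm of Dbt passed in each of the 80 alternative fits run, the highest adjusted p being 0.0130 without ZT16.

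Bckdk, the kinase that switches the complex off, stayed within 48.9 to 54.7 TPM in its group means under NRF and 48.1 to 52.5 TPM under DRF. Its test of a different rhythm had an unadjusted p of 0.0189 and an adjusted p of 0.0631 by limma, and it was called in 9 of 80 alternative fits. No single ZT passed. The widest difference, at ZT12, was -0.15 (SE 0.07, limma adjusted p = 0.163).

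Ppm1k, the mitochondrial phosphatase that switches the complex on, had the clearest change. Its gene is on the minus strand of chromosome 6, at 57506502 to 57535468 in GRCm38. At ZT20 the 4 NRF libraries held 23.6, 21.7, 21.8 and 25.2 TPM, and the 4 DRF libraries 38.3, 31.0, 34.2 and 33.9 TPM. At ZT24 the NRF libraries held 28.2, 25.7, 20.97 and 20.9 TPM, and the DRF libraries 42.1, 36.8, 42.6 and 43.8 TPM. Neither time point had any overlap, and the DRF means were 1.49 and 1.73 times the NRF means. On the log2 scale the differences were 0.55 (SE 0.11, limma adjusted p = 0.000506) and 0.77 (SE 0.11, limma adjusted p = 1.07e-05).

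Earlier in the day the 2 courses of Ppm1k ran closer or the other way. At ZT4 the NRF libraries held 27.8, 29.3, 34.4 and 38.0 TPM, and the DRF libraries 32.1, 21.3, 24.7 and 26.2 TPM. The groups overlapped, and the difference of -0.31 (SE 0.11) did not pass (limma adjusted p = 0.205). DRF ZT4 replicates 1 and 2, the highest and the lowest of that group, are 2 of the libraries that stood apart. At ZT8 the DRF mean was 30.9 ± 2.07 TPM and the NRF mean 30.7 ± 1.80 TPM (SD, n = 4 each). At ZT0 the DRF libraries held 36.7, 33.0, 30.4 and 31.9 TPM and the NRF libraries 29.3, 26.7, 20.4 and 30.7 TPM. The difference there was 0.30 (SE 0.11, limma adjusted p = 0.0549), and it passed without the 4 libraries that stood apart (0.0353) and after rescaling (0.0198).

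The fitted peak of Ppm1k lay at ZT9.35 (SE 0.86 h) under NRF and at ZT22.4 (SE 1.11 h) under DRF, with limma adjusted p of 0.00246 and 0.0158 for the rhythms. The log2 amplitudes, 0.22 (SE 0.05) and 0.19 (SE 0.05), were within each other's error. The DRF peak minus the NRF peak, taken around the clock, was -10.98 h (SE 1.40 h, 95% interval -13.73 to -8.23 h), whose size falls in the range of 8 to 12 h called phase inverted. That label rests on the fitted cosine. The highest group means lay at ZT4 under NRF (32.4 TPM) and at ZT24 under DRF (41.3 TPM). Under NRF the means at ZT4, ZT8, ZT12 and ZT16 were 32.4, 30.7, 31.7 and 30.4 TPM, with no single sharp peak. The test of a different rhythm had an adjusted p of 8.10e-05 by limma and was passed in all 80 alternative fits, the highest value being 0.00513 without replicate 3. The DRF rhythm had an adjusted p of 0.151 without replicate 1, 0.0534 without replicate 4, 0.0787 without ZT12 and 0.147 without ZT24, and without replicate 3 the NRF rhythm had one of 0.0560.

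The ratio of Ppm1k to Bckdk within a library does not depend on how libraries are scaled. It was examined after the values above were seen. At ZT24 it averaged 0.789 ± 0.0563 in the DRF hearts against 0.489 ± 0.0583 in the NRF hearts (SD, n = 4 each), and at ZT20 0.694 ± 0.0785 against 0.451 ± 0.0371 (SD, n = 4 each). At both time points the lowest DRF ratio (0.730 and 0.601) was above the highest NRF ratio (0.574 and 0.493). The exact permutation test, two-sided, gave p = 0.0286 at each, the smallest that 4 against 4 can give, and 0.1 after Benjamini-Hochberg adjustment over the 7 ZTs. At the other 5 ZTs the ratios overlapped. At ZT4 the ratio went the other way, averaging 0.512 ± 0.0644 in the DRF hearts against 0.650 ± 0.0976 in the NRF hearts, a log2 difference of -0.34 (SE 0.14, exact permutation p = 0.0857, 0.200 adjusted), and at ZT0 the difference was 0.31 (SE 0.19, exact permutation p = 0.143, 0.250 adjusted). At ZT8, ZT12 and ZT16 the differences were 0.05 (SE 0.07), -0.08 (SE 0.10) and 0.01 (SE 0.07) on the log2 scale. Leaving out each library in turn left the log2 difference between 0.55 and 0.69 at ZT20 and between 0.65 and 0.77 at ZT24.

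**Figure D2:**
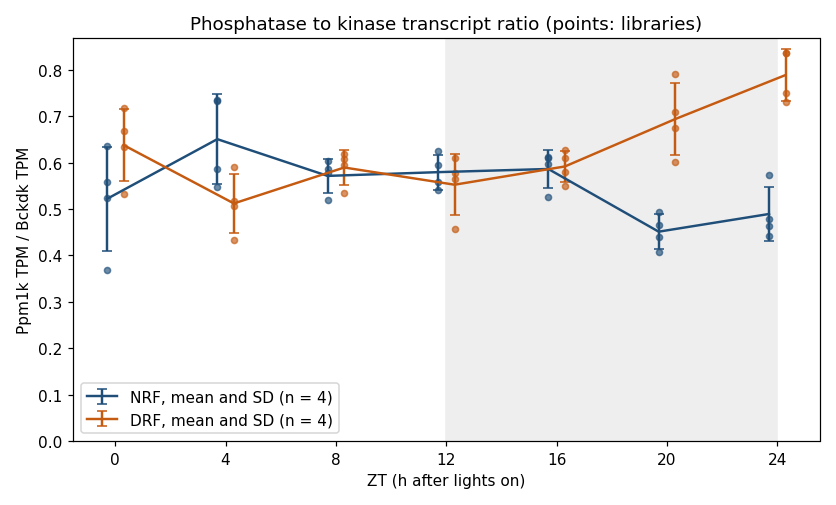
Ratio of Ppm1k TPM to Bckdk TPM (no unit) against ZT in h, with 1 point per library and the mean with its SD for each group of 4. The DRF mean is 0.789 at ZT24 while the NRF mean is 0.489, and the courses run together from ZT8 to ZT16.

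The second ratio computed, of Dbt to Bckdha, compared subunits of the complex. At ZT16 it averaged 0.572 ± 0.0315 in the DRF hearts against 0.651 ± 0.0506 in the NRF hearts (SD, n = 4 each), with no overlap. Its exact permutation p was 0.0286, and 0.200 after adjustment over the 7 ZTs, and at the other 6 ZTs the ratios overlapped.

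Of the leucine enzymes downstream of the complex, Ivd, the isovaleryl-CoA dehydrogenase, had the lower mean level over the day under DRF. Its 28 DRF libraries averaged 153 ± 15.5 TPM (SD) and its 28 NRF libraries 161 ± 11.5 TPM (SD), a difference of -0.09 on the log2 scale (SE 0.03, limma adjusted p = 0.0350). Ivd was the 1 member of 10 called lower, against 24.5% of all genes tested, whose median difference was -0.05, and no member was called higher, against 1.68%. At ZT16 the NRF libraries of Ivd lay within 171.3 to 173.4 TPM and the DRF libraries held 165.7, 151.1, 138.3 and 127.9 TPM. The groups did not overlap, and the difference of -0.25 (SE 0.08) was just past the threshold (limma adjusted p = 0.0497). It was lost without any 1 of 38 libraries, with adjusted p up to 0.274 (without DRF ZT16 replicate 4). Neither call for Ivd held after median-of-ratios rescaling, with adjusted p of 0.557 for the mean and 0.318 at ZT16. The mean level difference also missed the threshold without ZT0, ZT4, ZT12 or ZT16, with adjusted p of 0.149 to 0.217. That rescaling moved the median difference of all genes to 0.00 and called Ppm1k (0.16, limma adjusted p = 0.0402) and Hibch (0.10, limma adjusted p = 0.0236) higher under DRF. The 1.68% above belongs to the fit before rescaling, and the share of all genes called higher after it is not given here.

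Mccc1, the biotin-carrying subunit of methylcrotonyl-CoA carboxylase in the leucine branch, did not pass any test in the main fits. Its group means ran from 18.2 to 20.3 TPM under NRF and from 17.5 to 20.4 TPM under DRF. Exons of 3 opposite-strand genes overlap it, none by more than 2.93% of its exon bases.

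In the valine branch neither member passed a test in the main fits. Hibch, the hydrolase that frees 3-hydroxyisobutyrate, had group means of 26.4 to 28.3 TPM under NRF and 27.3 to 29.3 TPM under DRF. Hibadh, the dehydrogenase that acts next, had means of 53.2 to 54.8 TPM and 51.3 to 55.5 TPM. Their limma adjusted p for a different rhythm were 0.775 and 0.301, and the largest fitted amplitude of the pair was 0.05 (SE 0.02), for Hibadh under DRF.

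**Figure D3:**
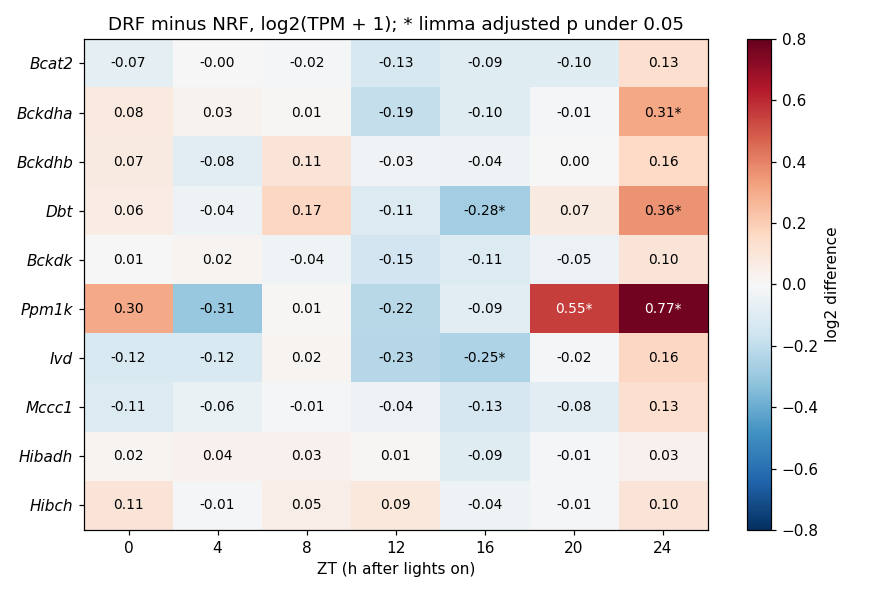
DRF minus NRF differences on the log2(TPM + 1) scale for the 10 members (rows) at each ZT in h (columns), with an asterisk where limma's adjusted p was under 0.05. The 6 asterisks fall at ZT16 (Dbt and Ivd, lower), ZT20 (Ppm1k, higher) and ZT24 (Bckdha, Dbt and Ppm1k, higher).

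By time of day, the calls fell at ZT16, ZT20 and ZT24. At ZT0, ZT4, ZT8 and ZT12 no member passed limma's test, against 11.3%, 0.44%, 0.389% and 7.74% of all genes. An unadjusted p under 0.05 was found in 1, 1, 1 and 4 members. These shares are of adjusted calls, and the share of all genes at the unadjusted threshold is not given here. At ZT16 2 members were called lower under DRF, against 6.25% of all genes. All 10 differences were below 0 on the TPM scale there, while 7 were above 0 after median-of-ratios rescaling. The median difference was -0.10 both for the members and for all genes at that time. At ZT20 1 member was called higher, against 3.39% of all genes. At ZT24 3 members were called higher, against 4.43% of all genes, and all 10 differences were above 0 on both scalings. The medians were 0.15 for the members and -0.00 for all genes. At ZT0, the same clock time, 7 of the 10 differences were above 0 on both scalings, with a median of 0.04 for the members, and Bckdha (0.08, limma adjusted p = 0.560) and Dbt (0.06, limma adjusted p = 0.714) did not pass.

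Without the 4 libraries that stood apart, all 6 of these differences passed again, and 2 were added, Ppm1k at ZT0 (0.30, limma adjusted p = 0.0353) and Ivd at ZT12 (-0.23, limma adjusted p = 0.0376). In that fit Bckdk joined the members with a different rhythm (limma adjusted p = 0.0408), making 4. The mean level was called for Ivd, lower, and Hibch, higher (0.06, limma adjusted p = 0.0434). The shares of all genes called in that fit are not given here, so its counts cannot be set against those of the main fits.

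ZT0 and ZT24 are the same clock time 1 day apart, from separately collected hearts. No member differed between them by limma's contrast, against 0.468% of all genes under DRF and 0.0576% under NRF. The unadjusted p was under 0.05 for Ppm1k, Dbt and Mccc1 under DRF and for Bckdha and Ivd under NRF. The share of all genes at that unadjusted threshold is not given here. Ppm1k was 0.32 higher at ZT24 than at ZT0 under DRF (SE 0.11, limma adjusted p = 0.196). For Bckdha under NRF, ZT24 minus ZT0 was -0.28 (SE 0.08, limma adjusted p = 0.253). Under NRF this value was below 0 for every member but Hibch (0.03).

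A test that takes no cosine shape compared the 7 ZT means. Under DRF it called Bckdha, Dbt and Ppm1k (limma adjusted p = 0.0208, 0.0460 and 0.000227), 3 of 10 members, against 31.5% of all genes. Between regimens it called Ppm1k, Dbt, Bckdha and Ivd (limma adjusted p = 6.09e-07, 0.00145, 0.0147 and 0.0426), 4 of 10, against 22.6% of all genes.

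The courses were also compared by time since food became available, by moving the DRF libraries by 12 h. After this realignment 1 of 10 members still differed in rhythm, Dbt (limma adjusted p = 0.000736), against 41.4% of all genes tested. Ppm1k (0.812) and Bckdha (0.724) did not differ after the move, and a p over the threshold does not show that their courses were the same. In the main fits Dbt differed both at the same clock time and at the same time from feeding. The first difference was lost in 8 of 80 alternative fits, and the second passed in each of 79, up to an adjusted p of 0.0159 without replicate 2. The rescaled fit added Mccc1 (limma adjusted p = 0.0228).

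The other genes of the pathway were taken from a list. Of 16 other catabolic enzymes 15 passed the low-value filter, all but Bcat1. Of these 2 were rhythmic under NRF (Acadsb and Aldh6a1), against 37.3% of all genes, and 0 under DRF by limma, against 32.4%. Under DRF 1 of them had an unadjusted p under 0.05, as did 6122 of the 13878 genes. A different rhythm was called for 2 of 15, Aldh6a1 and Auh, against 27.6% of all genes. Aldh6a1, which acts at the end of the valine branch, had a limma adjusted p of 0.0147 and peaks at ZT13.8 (SE 0.92 h) under NRF and ZT21.8 (SE 2.32 h) under DRF, where its rhythm did not pass. Auh, a hydratase of the leucine branch, had one of 0.0494. After realignment 0 of the 15 differed by limma, against 41.4% of all genes. An unadjusted p under 0.05 was found in 0 of the 15, and in 6905 of the 13878 genes. Pccb, a subunit of propionyl-CoA carboxylase, was the 1 enzyme with a different mean level, 0.07 higher under DRF (SE 0.03, limma adjusted p = 0.0476), where 1.68% of all genes were called higher and 24.5% lower.

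All 6 amino acid transporters of the list passed the filter, 4 being rhythmic under NRF, 3 under DRF and 3 under both, against 37.3%, 32.4% and 17.7% of all genes. A different rhythm was called for 2, against 27.6%, and 3 differed after realignment, against 41.4%. Slc25a44, the mitochondrial carrier of branched-chain amino acids, had peaks at ZT13.4 (SE 1.00 h) under NRF and ZT5.36 (SE 1.30 h) under DRF, with a limma adjusted p of 0.00382 for the difference and of 0.108 for the DRF rhythm, which did not pass. Slc43a2, a plasma membrane carrier, peaked at ZT8.61 (SE 1.17 h) and ZT0.696 (SE 0.70 h), with one of 4.85e-05, and it also differed after realignment (limma adjusted p = 0.0115). Slc7a8 and Slc43a1 were rhythmic under both regimens, with no different rhythm called at the same ZT, and both differed after realignment. Slc7a5 was the 1 transporter with a lower mean level under DRF, against 24.5% of all genes.

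Of the 3 regulators listed, Klf15 was rhythmic under both regimens and Ppargc1a under DRF, so that 1 was rhythmic under NRF, against 37.3% of all genes, and 2 under DRF, against 32.4%. None had a different rhythm by limma's test of the cosine, against 27.6% of all genes. An unadjusted p under 0.05 was found in 1 of the 3, and in 5417 of the 13878 genes. Klf15 and Ppargc1a differed after realignment, against 41.4% of all genes. Ppargc1a was also higher in mean level under DRF, against 1.68% of all genes. The test of regimen by ZT means, which takes no cosine shape, called Klf15 (limma adjusted p = 0.00536) and Ppargc1a (0.0358), 2 of the 3 regulators, against 22.6% of all genes. It called 3 of the 15 enzymes, Mccc2 (0.0190), Aldh6a1 (0.0395) and Mut (0.0463), and 2 of the 6 transporters, Slc25a44 (0.0245) and Slc43a2 (8.59e-05). Genes of these lists beyond Aldh6a1, Auh, Slc25a44 and Slc43a2 were named after their values were seen.

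**Figure D4:**
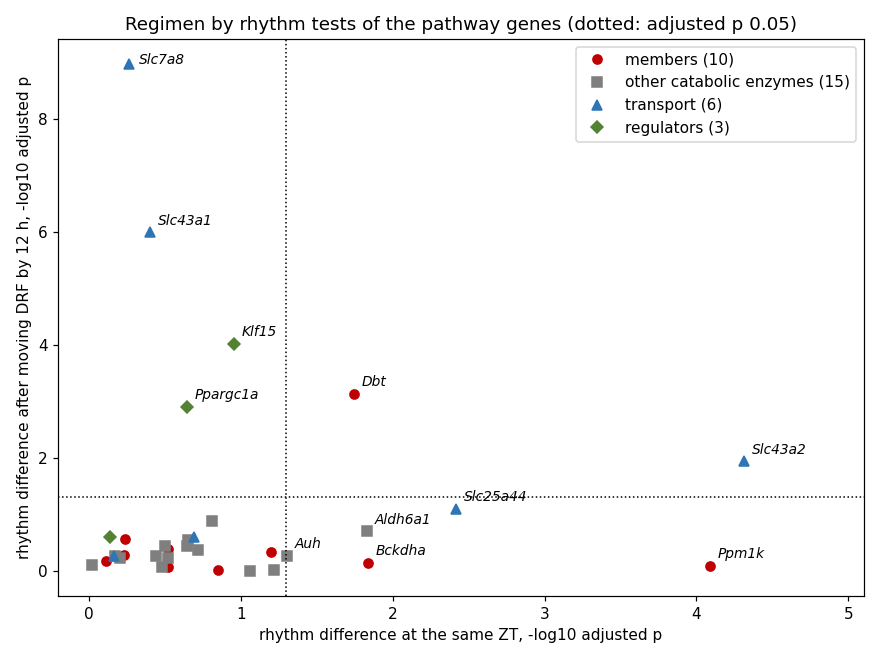
Each point is a pathway gene, with -log10 of limma's adjusted p for a rhythm difference at the same ZT on the horizontal axis and after moving DRF by 12 h on the vertical axis, and dotted lines at an adjusted p of 0.05. Ppm1k, Bckdha, Aldh6a1, Auh and Slc25a44 lie past the vertical line alone, Klf15, Ppargc1a, Slc7a8 and Slc43a1 past the horizontal line alone, and Dbt and Slc43a2 past both.

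Across the 56 libraries the log2 levels of the 45 pairs of members correlated at r = 0.03 to 0.79, with a median of 0.48. These values are a description, since the points share libraries, depth and scaling. Over the 14 group means the closest pairs were Bcat2 with Ivd (r = 0.85) and Bckdha with Bckdk (r = 0.84), and the least alike were Bcat2 and Hibch (r = -0.06).

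The genes whose 14 group means ran most like those of Ppm1k were 5730455P16Rik (r = 0.93), Ttc38 (r = 0.93) and Ubxn10 (r = 0.92). For Bckdha they were Pdk2 (r = 0.92), Gstm1 (r = 0.92) and Wbp2 (r = 0.91), and for Dbt Acot11 (r = 0.93), Nipbl (r = 0.92) and Phip (r = 0.92). Each is the highest of all genes tested, over 14 groups, so it carries no test.

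Atrial and fat marker levels differed between libraries of one group, so their summed levels were added to the fits as covariates. At ZT24 the atrial sum was 155 to 1381 TPM (median 295) under NRF and 227 to 3119 (median 1916) under DRF. At ZT20 it was 437 to 1594 (median 1426) under NRF and 97.8 to 2624 (median 619) under DRF. With these covariates the same 3 members had a different rhythm, Ppm1k (limma adjusted p = 7.93e-05), Bckdha (0.00953) and Dbt (0.0127). The mean level difference of Ivd, -0.08 against -0.09 without covariates, no longer passed (limma adjusted p = 0.0940). Its ZT16 difference was also lost (limma adjusted p = 0.0662), while the ZT24 differences of Bckdha, Dbt and Ppm1k still passed. The part of the other marker lists in these results was not tested.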

How the data were processed

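PolyA RNA of 56 heart samples was sequenced as paired ends. The submitters' processing notes name HISAT2 2.0.5, featureCounts 1.5.0-p3 and mm10. The annotation and the strand setting are not given in the sources used here. The values the authors deposited under the name TPM proved to be of another kind, a library constant multiplied by log2(1 + scaled reads) and divided by exon length. With GENCODE M21 exon lengths, 22004 of the 22864 genes gave whole reads. For 837 genes a length that gives whole reads was searched for, 22 genes were too abundant to test, and Atp5a1 was left out. With these lengths 100% of 1197174 tested values lay within 0.1 of a whole read, which for the 837 genes the search fixed in advance. Linear TPM was recomputed from these reads. All members kept the annotated length. Values simulated from the recovered reads with the same formula gave those reads back. That does not test whether the formula holds for the deposited values.

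The members and lists were chosen with earlier results of these data known. The filter kept genes averaging 1 TPM or more, which were tested with limma 3.58.1 (R 4.3.3), eBayes with trend, on log2(TPM + 1), a scale that understates changes of low genes, with Benjamini-Hochberg adjusted p under 0.05. A 24-h cosine stood in for MetaCycle and CircaCompare. A different rhythm was tested by the 2 interaction terms in all 56 libraries, single ZTs by contrasts of 14 group means. All members were named in every test, other pathway genes if among the 8 with the largest F past the test of a different rhythm, and the 3 genes most like a member by Pearson correlation. The labels number the replicates but do not tie them to animals, so p-values measure the spread between these samples, which may be technical. Errors based on reads cover counting only. The alternatives were pseudocount 0.1, linear TPM, deposited values, median-of-ratios rescaling, other filters and eBayes settings, marker covariates, and libraries, replicates or ZTs left out.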

Additional observations from a re-analysis of the deposited data

Results flagged for a closer look

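The rhythms of Ppm1k (limma adjusted p = 8.10e-05), Bckdha (0.0146) and Dbt (0.0180) differed between DRF and NRF by the test of the interaction, which is why they are listed here. In 8 of 140 groups of 4 one library lay far from the other 3, where chance alone gives about 1 in 20 groups. The gap to the nearest library, as a share of the range of the group, was 0.879 for Bcat2 at DRF ZT4 (replicate 2, lowest, one of the libraries that stood apart), 0.851 for Bckdha at NRF ZT8 (replicate 4, highest) and 0.882 for Bckdha at NRF ZT12 (replicate 3, highest). It was 0.839 for Bckdhb at DRF ZT0 (replicate 1, highest), 0.886 for Bckdk at DRF ZT16 (replicate 1, highest) and 0.924 for Bckdk at DRF ZT24 (replicate 4, highest). It was 0.875 for Mccc1 at NRF ZT16 (replicate 3, lowest) and 0.850 for Hibadh at DRF ZT24 (replicate 4, highest), the same library as for Bckdk.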

How the results depend on the processing

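The different rhythm of Ppm1k and its differences at ZT20 and ZT24 passed under every alternative run for them (80, 72 and 72). Dbt lost its different rhythm in 8 of 80, Bckdha in 6 of 80, the ZT16 difference of Dbt in 11 of 72 and that of Ivd in 50 of 72. The ZT24 differences of Bckdha and Dbt were lost in 3 and 1 of 72. No called difference turned direction, while the uncalled mean differences of Bcat2, Bckdha, Bckdk and Mccc1 and most uncalled differences at ZT16 went from below to above 0 after rescaling. The count of members above 0 also rose from 3 to 8 at ZT20, 7 to 10 at ZT8, 2 to 4 at ZT12 and 3 to 4 at ZT4. The causes were not tested. The counts that follow are of members, and apart from the test over ZT means the shares of all genes in these alternatives are not given here. Median-of-ratios rescaling left 1 member with a different rhythm, 2 after realignment and 2 in mean level. A threshold of 0.01 left 0 rhythmic under DRF, 1 with a different rhythm and 0 in mean level. The mean level count was 0 with the deposited values, without a filter and with marker covariates, 0 without ZT0, ZT12 or ZT16, 1 without ZT4 (where Ivd, at 0.160, was no longer the member called), 2 without ZT24 and 2 without the 4 libraries that stood apart. The count rhythmic under DRF was 3 by the F test over ZT means, 0 without ZT12 or ZT24 and 2 without ZT4 or ZT8, and that under NRF was 4 without ZT0. Without ZT12 or ZT24 the count with a different rhythm was 1. Leaving out 1 replicate number gave 1 to 3 members rhythmic under NRF, 0 to 1 under DRF, 1 to 3 with a different rhythm, 0 in mean level and 3 to 6 single-ZT differences. Leaving out 1 library gave 2 to 3, 1 to 2 (2 without DRF ZT4 replicate 3), 3 to 4, 0 to 1 and 4 to 8, the mean level being lost without DRF ZT12 replicate 1, DRF ZT16 replicate 3 or 4, DRF ZT20 replicate 2, NRF ZT4 replicate 4, NRF ZT8 replicate 4 or NRF ZT12 replicate 3. The replicate block changed 1 call, losing the ZT16 difference of Ivd (limma adjusted p = 0.0537). It left 5 single-ZT differences, and 3 members with a different rhythm. Deviations of libraries with one number correlated at a median r of 0.01, against -0.00 for other numbers, 25.3% and 20.4% of pairs were over 0.1, and for 23 of 56 libraries the closest library of another group had the same number. These values cannot decide whether equal numbers pair the samples, since no value expected by chance was set beside the 23 of 56. The share of pairs over 0.1 was the higher one for equal numbers. The labels tie no samples together, so the main fits did not pair by number, and the replicate block gives the fit that took the numbers into account. With 4 libraries per group, the smallest single-ZT difference of a member that passed was -0.25 (Ivd at ZT16), and those of Ppm1k at ZT4 (-0.31) and ZT0 (0.30) did not pass.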
